A study of Danio rerio with 40 samples.

Results

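Zebrafish carry igfbp1a and igfbp1b as a pair of paralogs, and both were followed here across larval age and calcitriol treatment. They were found by their symbols and are 2 of the 14267 genes counted. The table places igfbp1a on chromosome 20 and igfbp1b on chromosome 2 of the Zv9 assembly. IGFBP1 is a small secreted protein, made mainly by the liver, that binds insulin-like growth factors (IGFs) and limits their access to the IGF receptor. In mammals its gene is switched on in fasting through FOXO factors when insulin is low, and also by amino acid shortage, glucocorticoids and hypoxia. In zebrafish embryos the protein slows growth under low oxygen, and in human cells the gene has been described as a target of the vitamin D receptor.

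Sets of 25 to 30 whole Segrest wild-type embryos or larvae were held in 300 pM calcitriol (1α,25-dihydroxyvitamin D3, the hormone form of vitamin D) dissolved in ethanol, or in ethanol vehicle alone. Exposure began at 24 h after fertilization, the medium was renewed every 24 h, and all groups also received 0.003% (w/v) phenylthiourea, which blocks pigment. Animals were frozen at 2, 4, 6 or 7 days post fertilization (dpf), which gives 8 groups of 5 poly-A RNA libraries, 40 in all. The labels also describe larvae exposed at 6 dpf for 24 h only, and no library is marked as coming from them, which leaves the exposure of 6 and 7 dpf larvae as the main protocol gives it, without certainty. Because each library is a whole animal pool, fewer cells of a type and less RNA per cell cannot be told apart.

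Libraries held 67235165 to 214502251 counts, and 13538 to 13931 genes were detected in each. In every group 1 library was shallower than the other 4: the 8 shallow libraries reached 81298182 counts or fewer, and no other had under 106850887. The shallow library is replicate 5 of a calcitriol group or replicate 1 of a vehicle group. For igfbp1a the shallow library lay below the other 4 in 5 of the 8 groups, within them in 2 and above them in 1, and for igfbp1b these numbers were also 5, 2 and 1. Whether the sets of a group were separate clutches is not stated in the labels, and p-values refer to the spread among the sequenced libraries alone, which may be technical.

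The pair was selected because it rose in calcitriol larvae in earlier results from these same libraries. The calcitriol effect at 4, 6 and 7 dpf is therefore given as a description without a p-value. Tests are kept for the effect at 2 dpf, for change with age in vehicle larvae, and for other genes. The lists of other genes were also chosen with earlier results of these data known, so their p-values are not free of that choice. Levels are CPM, the counts relative to library size, scaled by TMM factors. They are listed for replicates 1 to 5 in that order, and n is 5 libraries per group throughout.

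At 2 dpf, after 1 day in the hormone, neither paralog differed detectably between calcitriol and vehicle embryos. Expression of igfbp1a was 39.1, 32.9, 36.6, 38.4 and 20.7 CPM in calcitriol embryos, against 16.6, 41.4, 28.9, 44.7 and 30.4 CPM in vehicle embryos. Expression of igfbp1b was 4.27, 2.93, 5.26, 6.06 and 4.20 CPM in calcitriol embryos, against 3.13, 3.51, 2.92, 6.21 and 5.96 CPM in vehicle embryos. The groups overlapped for both genes. The log2 fold change was 0.05 ± 0.24 (SE) for igfbp1a and 0.06 ± 0.25 for igfbp1b, both with an adjusted p of 1.00 in edgeR's quasi-likelihood test (Benjamini-Hochberg over 13203 genes). At this age 0.00757% of all genes tested were called higher and 0% lower, and 0.151% had every calcitriol library above every vehicle library.

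By 4 dpf both paralogs were higher on average in calcitriol larvae, with ranges that still overlapped those of vehicle larvae. Expression of igfbp1a was 69.1, 81.0, 153, 139.5 and 37.2 CPM in calcitriol larvae, against 19.7, 59.202, 43.9, 63.0 and 64.1 CPM in vehicle larvae. Expression of igfbp1b was 76.5, 95.2, 326, 268 and 36.0 CPM in calcitriol larvae, against 12.9, 35.0, 27.5, 66.2 and 55.2 CPM in vehicle larvae. In both groups the shallow library was the lowest for both genes. The log2 fold change was 0.95 ± 0.38 for igfbp1a and 2.03 ± 0.58 for igfbp1b, the largest but 1 of the 13410 genes tested at that age. At 4 dpf 0.82% of genes had every calcitriol library above every vehicle library, and neither paralog was among them.

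The widest gap between treatments came at 6 dpf. Expression of igfbp1a was 347, 310.3, 429.9, 541 and 199 CPM in calcitriol larvae, against 125, 127, 115, 128 and 161 CPM in vehicle larvae. Expression of igfbp1b was 946, 831, 1415, 1663 and 464 CPM in calcitriol larvae, against 86.3, 175, 135, 154 and 176 CPM in vehicle larvae. Every calcitriol library lay above every vehicle library for both genes, as it did for 3.32% of all genes tested. The log2 fold change was 1.49 ± 0.22 for igfbp1a (2.81-fold) and 2.89 ± 0.32 for igfbp1b (7.40-fold), in rank order 28 and 4 among 13505 genes from the largest rise down.

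At 7 dpf both genes remained separated between treatments, with smaller folds than at 6 dpf. Expression of igfbp1a was 429.7, 406, 473, 463 and 436 CPM in calcitriol larvae, against 249, 239.9, 183, 231 and 219 CPM in vehicle larvae. Expression of igfbp1b was 1054, 930.2, 1098, 1141 and 1430.1 CPM in calcitriol larvae, against 211, 374, 282, 355 and 364 CPM in vehicle larvae. Groups separated in this direction made up 8.16% of all genes at that age. The log2 fold change was 0.98 ± 0.09 for igfbp1a (1.98-fold, rank 262 of 13434) and 1.84 ± 0.16 for igfbp1b (3.59-fold, rank 55).

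**Figure D1:**
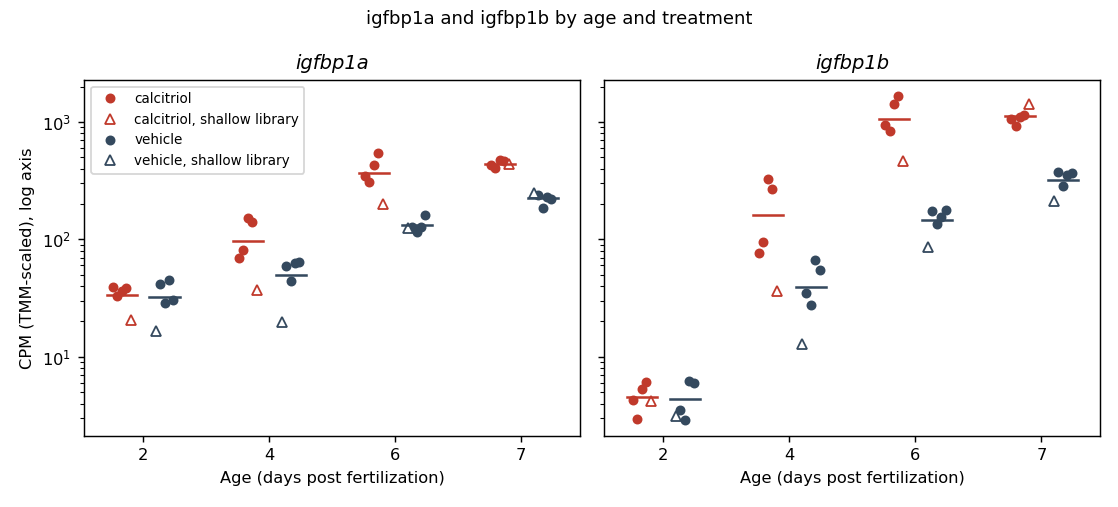
Expression of igfbp1a (left) and igfbp1b (right) in CPM on a log axis against age in dpf, with 1 point per library, calcitriol left of vehicle at each age, bars at the group means and open triangles for the shallow library of each group. The groups overlap at 2 and 4 dpf and lie apart at 6 and 7 dpf for both genes.

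From 6 to 7 dpf the ratio of mean CPM, later over earlier, was 1.21 in calcitriol larvae and 1.71 in vehicle larvae for igfbp1a. For igfbp1b it was 1.06 in calcitriol larvae and 2.18 in vehicle larvae. Across the whole course, 7 over 2 dpf, mean igfbp1a was 13.2-fold higher in calcitriol animals and 6.94-fold higher in vehicle animals. Mean igfbp1b was 249-fold higher in calcitriol animals and 72.9-fold higher in vehicle animals. Ranked by mean CPM among the 14267 genes, igfbp1b stood at place 9673, 776, 132 and 132 in calcitriol animals and at 9764, 3412, 948 and 427 in vehicle animals at 2, 4, 6 and 7 dpf. The ranks of igfbp1a were 3971, 1400, 350 and 300 in calcitriol animals and 4070, 2695, 1061 and 612 in vehicle animals at the same ages.

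Ordered from low to high mean, igfbp1a ran from vehicle and calcitriol at 2 dpf through vehicle and calcitriol at 4 dpf, then vehicle at 6, vehicle at 7, calcitriol at 6 and calcitriol at 7 dpf. Only vehicle at 7 dpf was free of overlap with the group next below it, vehicle at 6 dpf. For igfbp1b the order was vehicle and calcitriol at 2 dpf, vehicle at 4, vehicle at 6, calcitriol at 4, vehicle at 7, calcitriol at 6 and calcitriol at 7 dpf. Vehicle at 4, vehicle at 6 and calcitriol at 6 dpf each lay wholly above the group before them, and the other neighbours overlapped.

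The exon table numbers the calcitriol libraries differently from the gene table, and under its numbers the deviations of same-numbered calcitriol and vehicle libraries ran together at 2, 4 and 6 dpf. Read by those numbers, igfbp1b was higher in the calcitriol member of all 5 pairs at 4 dpf, by 2.19- to 4.92-fold, with a median of 3.47. The fold was 5.38 to 9.44 at 6 dpf (median 6.15) and 2.82 to 6.78 at 7 dpf (median 3.14). For igfbp1a the folds by pair were 1.17 to 2.43 at 4 dpf, 1.60 to 3.37 at 6 dpf and 1.75 to 2.21 at 7 dpf. At 2 dpf they straddled 1, with 0.818 to 1.26 for igfbp1a and 0.847 to 1.34 for igfbp1b. At 4 dpf the calcitriol member was the higher of every pair so numbered, for both genes, while the groups as a whole overlapped. How many of all genes were higher in every pair was not counted. A fit with these numbers as a block called 700 of 13410 genes higher at 4 dpf. The numbers were judged by correlations in these same libraries, so the folds by pair are a description only. At 7 dpf the lowest correlation, 0.0954, was under the limit used, and the libraries may not be pairs there.

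Both genes could also be read exon by exon in the authors' exon table. It names 3 rows for igfbp1a, chr20:7029614-7030064 and an exon at chr20:7032152-7032281 that is listed once with ascending and once with descending limits, and 2 rows for igfbp1b, chr2:167670-167884 and chr2:168070-168199 (all Zv9). What the descending limits mean is not given in the sources used here. The log2 ratio of mean CPM, calcitriol over vehicle, was 0.92 to 1.04 across the igfbp1a rows at 4 dpf, 1.45 to 1.60 at 6 dpf and 1.08 to 1.24 at 7 dpf. Across the igfbp1b rows the log2 ratio was 2.04 to 2.14 at 4 dpf, 2.92 to 2.96 at 6 dpf and 1.90 to 1.98 at 7 dpf. Every row of both genes was thus higher on average in calcitriol larvae at these ages. The row chr20:7029614-7030064 held 74.4% to 83.9% of the igfbp1a named-exon counts outside the shallow libraries. At 6 dpf that row overlapped between treatments, at 370 to 2240 in calcitriol larvae and 300 to 595 in vehicle larvae. The descending row overlapped at 7 dpf, at 200 to 402 in calcitriol larvae and 81.1 to 223 in vehicle larvae. No other row overlapped at 6 or 7 dpf.

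Levels of the paralogs can be set beside each other only over equal lengths, and the exons at chr20:7032152 and chr2:168070 span the same distance. Over these exons, relative to all counts in named exons, igfbp1b was 0.0605 times igfbp1a in calcitriol embryos and 0.0535 times in vehicle embryos at 2 dpf, using the ascending igfbp1a row. By 4 dpf the quotient was 1.81 in calcitriol larvae and 0.902 in vehicle larvae. It was 3.54 in calcitriol larvae and 1.34 in vehicle larvae at 6 dpf, and 3.11 in calcitriol larvae and 1.69 in vehicle larvae at 7 dpf. With the descending row the quotients at 7 dpf were 3.83 in calcitriol larvae and 2.05 in vehicle larvae. With either row taken alone, igfbp1a was the higher at 2 dpf and igfbp1b the higher at 6 and 7 dpf. Whether the ascending and descending rows count separate reads is not known, and their sum was not used. Which paralog was the higher in vehicle larvae at 6 and 7 dpf is therefore not settled. The shallow libraries also held 20.5% to 25.5% of their igfbp1a named-exon counts in the ascending row, against 9.43% to 14.8% in the other libraries.

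The balance of the gene counts, log2(igfbp1b/igfbp1a), needs no lengths when it is compared between groups. In calcitriol animals it was -2.89 ± 0.46 (SD) at 2 dpf, 0.47 ± 0.51 at 4 dpf, 1.49 ± 0.19 at 6 dpf and 1.34 ± 0.21 at 7 dpf. In vehicle animals it was -2.89 ± 0.54, -0.44 ± 0.35, 0.11 ± 0.38 and 0.47 ± 0.40 at those ages. The calcitriol values are a description, since both genes were chosen on that contrast. In vehicle animals the balance moved toward igfbp1b by 2.45 ± 0.29 (SE) in 4 over 2 dpf larvae, with no overlap between the ages (exact permutation test, two-sided, p = 0.00794, the smallest that 5 against 5 allows, adjusted p = 0.0238 over 3 steps). The shift in 6 over 4 dpf larvae was 0.55 ± 0.23 (exact p = 0.0476, adjusted p = 0.0714), and in 7 over 6 dpf larvae it was 0.36 ± 0.25 (exact p = 0.183, adjusted p = 0.183). Without the shallow libraries these shifts were 0.67 and 0.38, both with an adjusted exact p of 0.0286. That is the smallest exact p that 4 against 4 allows, so it does not grade the shifts. The permutation test took the libraries as unpaired and as independent, though some libraries of a group were closer to each other than to the rest. By replicate number the balance was higher at the later age in every vehicle pair of all 3 steps. An exact test of 5 pairs allows no p under 0.0625.

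**Figure D2:**
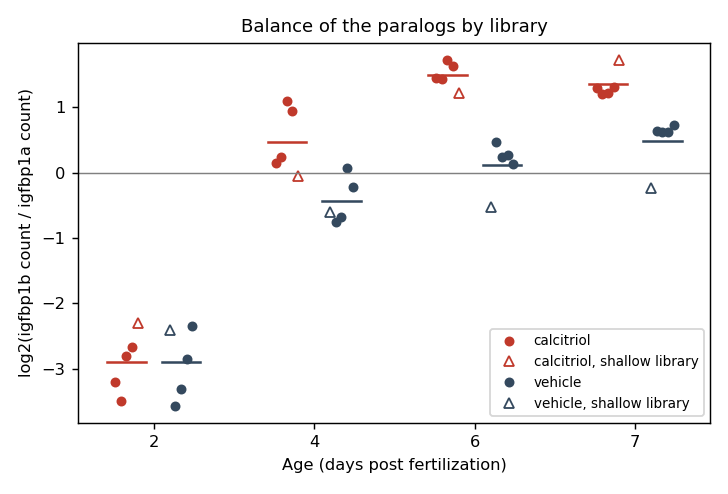
The balance of the paralogs, log2 of the igfbp1b count over the igfbp1a count, against age in dpf, with 1 point per library, calcitriol left of vehicle, bars at the means and open triangles for the shallow libraries. The balance starts near -2.89 in both groups at 2 dpf, and at 6 and 7 dpf every calcitriol library lies above every vehicle library.

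Vehicle larvae gave a test of age that does not use the hormone contrast, although their 4, 6 and 7 dpf libraries are shared with it and neighbouring steps share groups. Both paralogs rose with age. In 4 over 2 dpf vehicle larvae igfbp1b rose by a log2 fold change of 3.17 ± 0.40 (SE; edgeR, adjusted p = 2.48e-05), while igfbp1a, at 0.62 ± 0.31, did not pass (adjusted p = 0.103). Whether igfbp1a passed depended on the libraries kept. Without the shallow 4 dpf library its change was 0.82 with an adjusted p of 0.0115. The shallow 2 dpf library was low as well, and the change also passed without both. Leaving out 1 library at a time gave 0.45 to 0.82, with an adjusted p of 0.0115 to 0.201. With the replicate number as a block the igfbp1a change was 0.59 ± 0.10 with an adjusted p of 0.000992. Called higher in this step were 32.1% of all genes, and 30.2% were called lower.

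In 6 over 4 dpf vehicle larvae igfbp1a rose by 1.396 ± 0.254 (edgeR, adjusted p = 0.00151) and igfbp1b by 1.89 ± 0.36 (adjusted p = 0.00195), where 18.1% of genes were called higher and 17.8% lower. In 7 over 6 dpf vehicle larvae igfbp1a rose by 0.80 ± 0.11 (adjusted p = 0.000794) and igfbp1b by 1.15 ± 0.20 (adjusted p = 0.00426), where 7.1% were called higher and 4.92% lower. In 1 fit of all 40 libraries these last changes did not pass, at adjusted p = 0.0862 for igfbp1a and 0.0734 for igfbp1b. Later libraries lay wholly above earlier ones in each step for both genes, other than igfbp1a in 4 over 2 dpf larvae. The share of all genes separated in that way was 25.7%, 12.6% and 5.22% in the steps in age order.

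**Figure D3:**
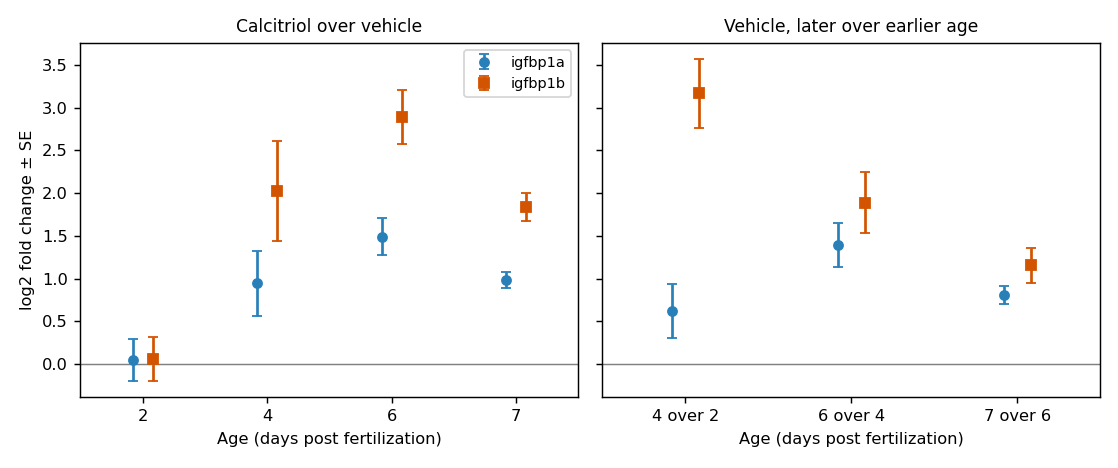
Log2 fold change with its SE for igfbp1a (circles) and igfbp1b (squares), for calcitriol over vehicle by age (left) and for later over earlier vehicle larvae (right), from edgeR with 5 libraries per group. The igfbp1b value is the higher of the pair in each comparison, with 0.06 for igfbp1b and 0.05 for igfbp1a at 2 dpf, within their SE, and 2.89 for igfbp1b and 1.49 for igfbp1a at 6 dpf.

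Libraries high in one paralog were often, not always, high in the other. The same library was the highest of its group for both genes in 4 of 8 groups, and the same library was the lowest in 4 of 8. Libraries of a group differed in depth and the labels give no batch, so the correlations that follow are a description. Over the 40 libraries, deviations from group means correlated at r = 0.83 between the pair. By that measure igfbp1b ranked 14 among 7623 genes for likeness to igfbp1a, and igfbp1a ranked 36 for likeness to igfbp1b. The 5 genes closest to igfbp1a were irf2bp2b (r = 0.90), foxg1b (0.89), ets2 (0.88), tsc22d2 (0.88) and dusp7 (0.87). The 5 closest to igfbp1b were setdb2 (r = 0.90), ccdc6a (0.88), sp1 (0.88), brn1.2 (0.88) and osr2 (0.87).

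Over the 8 group means, which share age and treatment, the closest to igfbp1a were dusp6, mid1ip1a, pms1, tmprss13a and ctdsp1 (r = 0.99 each). The closest to igfbp1b were dhodh, rasl11b, tat, nek7 and slc30a10 (r = 0.99 each). The gene tat encodes tyrosine aminotransferase, a liver enzyme of amino acid breakdown. It had a median of 534 CPM in calcitriol larvae and 154 CPM in vehicle larvae at 6 dpf, and 539.6 CPM in calcitriol larvae and 292 CPM in vehicle larvae at 7 dpf. Between themselves the pair correlated at r = 0.97 over these means. By that measure igfbp1b ranked 52 among 7623 genes for likeness to igfbp1a, and igfbp1a ranked 47 for likeness to igfbp1b.

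Other genes of the IGF axis changed in both directions in calcitriol larvae, with 2 of 21 called higher and 6 lower at 6 dpf, and the same numbers at 7 dpf. Across all genes tested, 4.37% were called higher and 6.32% lower at 6 dpf, and 14.6% higher and 14.2% lower at 7 dpf. All 8 called genes are named here, beyond the 3 with the smallest p at each age, and the additional ones were chosen after their values were seen. The median log2 fold change of the list was 0.06 at 6 dpf and 0.04 at 7 dpf, against 0.02 and 0.01 over all genes. No member was called at 2 or 4 dpf in edgeR, where 0 and 5 had an unadjusted p under 0.05. With the exon table's numbers as a replicate block 5 members were called at 4 dpf, all lower, and 5 higher and 7 lower at 6 dpf. Of all genes that block called 700 of 13410 higher and 555 lower at 4 dpf. At 6 dpf it called 1747 of 13505 higher and 1710 lower. Without the shallow libraries stc2 was called lower at 4 dpf, and the numbers were 6 higher and 6 lower at 6 dpf and 5 higher and 7 lower at 7 dpf. Those fits called 9 of all 13429 genes higher and 9 lower at 4 dpf. They called 1638 of 13515 higher and 1894 lower at 6 dpf, and 3848 of 13463 higher and 3778 lower at 7 dpf.

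Among the ligands, ins, which encodes insulin, the hormone that represses IGFBP1 in mammals, fell. Its level was 3.69, 4.11, 2.98, 2.48 and 5.54 CPM in calcitriol larvae, against 10.98, 12.7, 12.6, 13.4 and 13.2 CPM in vehicle larvae at 6 dpf. At 7 dpf it was 2.10, 1.06, 1.31, 0.85 and 2.04 CPM in calcitriol larvae, against 9.61, 12.9, 11.7, 13.5 and 11.5 CPM in vehicle larvae. No library of one group overlapped the other at either age. How many of all genes lay wholly lower in calcitriol larvae is not given here. Of all genes tested 6.32% were called lower at 6 dpf and 14.2% at 7 dpf. The log2 fold change of ins was -1.74 ± 0.18 at 6 dpf (edgeR, adjusted p = 0.000189) and -3.01 ± 0.24 at 7 dpf (adjusted p = 7.82e-06). The other insulin gene, insb, did not fall. Its log2 fold change was 0.82 ± 0.71 at 6 dpf and 0.997 ± 0.517 at 7 dpf, and neither passed in edgeR (adjusted p = 0.536 and 0.169). At 7 dpf insb passed as higher without the shallow libraries and with limma voom. At 4 dpf the groups overlapped for ins, with a median of 7.16 CPM in calcitriol larvae and 8.81 CPM in vehicle larvae. Its log2 fold change there was -0.37 ± 0.13 and did not pass (edgeR, adjusted p = 0.561). With the exon-table replicate block ins was called lower at 4 dpf.

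Both igf2 paralogs, which encode the growth factor IGF2, rose. The level of igf2b was 74.0, 69.0, 75.8, 74.8 and 32.2 CPM in calcitriol larvae, against 22.7, 36.4, 35.5, 30.1 and 29.7 CPM in vehicle larvae at 6 dpf, with the shallow calcitriol library inside the vehicle range. Its log2 fold change was 1.09 ± 0.21 at 6 dpf (edgeR, adjusted p = 0.00628) and 1.34 ± 0.19 at 7 dpf (adjusted p = 0.000374). For igf2a it was 0.62 ± 0.16 at 6 dpf (adjusted p = 0.0284) and 0.80 ± 0.15 at 7 dpf (adjusted p = 0.00297). The igf2a groups overlapped at both ages, with the shallow calcitriol library inside the vehicle range. That library had 8.27 CPM at 6 dpf, against 6.82 to 10.8 CPM in vehicle larvae. At 7 dpf it had 9.95 CPM, against 6.66 to 10.8 CPM in vehicle larvae. The igf2a call at 6 dpf was lost in 7 of 10 fits that left out 1 library, with an adjusted p of up to 0.0823. The gene igf1, which encodes the main circulating IGF, had log2 fold changes of 0.29 ± 0.11 at 6 dpf and 0.15 ± 0.13 at 7 dpf and did not pass (adjusted p = 0.116 and 0.417). At 6 dpf igf1 did pass without the shallow libraries (0.33, adjusted p = 0.0426), with limma voom (adjusted p = 0.0148), with DESeq2 (adjusted p = 0.0435) and without scaling factors (adjusted p = 0.0319).

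Of the receptor genes igf1ra, igf1rb, insra, insrb and igf2r, none passed at 6 or 7 dpf in the edgeR fit of 5 against 5 libraries with no block, and the largest log2 fold change among them was 0.47 for igf2r at 7 dpf (adjusted p = 0.0571). Those calls depended on the fit. The gene igf1rb, for an IGF1 receptor, had 0.39 ± 0.17 at 6 dpf (adjusted p = 0.192) and passed there at 0.38 with the exon-table replicate block (adjusted p = 0.00186) and at 0.40 without the shallow libraries (adjusted p = 0.000806). At 7 dpf igf1rb was 0.42 without the shallow libraries (adjusted p = 0.000266). For igf2r, which encodes the receptor that clears IGF2 in mammals, the values were 0.27 with the block (adjusted p = 0.00818) and 0.28 without the shallow libraries (adjusted p = 0.0116) at 6 dpf, and 0.54 without them at 7 dpf (adjusted p = 0.000213). The insulin receptor genes insrb at 6 dpf with the block (0.17, adjusted p = 0.0418) and insra at 7 dpf without the shallow libraries (-0.24, adjusted p = 0.00590) also passed. The gene igf1ra passed in none of the fits run at 6 and 7 dpf.

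Of the other binding protein genes igfbp2a, igfbp2b, igfbp5a and igfbp6b fell at both ages, and none was called higher in the edgeR fit of 5 against 5 libraries. At 6 dpf igfbp6a, at 0.77 ± 0.25, did not pass there (adjusted p = 0.0737) and did pass as higher without the shallow libraries (0.81, adjusted p = 0.0271), with limma voom (adjusted p = 0.00929) and without scaling factors (adjusted p = 0.0367). In that edgeR fit igfbp3, at -0.26 ± 0.11 at 6 dpf, did not pass either (adjusted p = 0.147). It passed as lower at 6 dpf with the exon-table replicate block and with limma voom. The level of igfbp2a, which encodes an IGF carrier of fetal serum in mammals, was 18.2, 22.0, 17.1, 21.0 and 38.4 CPM in calcitriol larvae, against 61.6, 43.4, 46.7, 49.3 and 54.7 CPM in vehicle larvae at 6 dpf. At 7 dpf it was 14.1, 13.6, 14.2, 15.2 and 20.5 CPM in calcitriol larvae, against 44.8, 40.3, 39.4, 44.7 and 39.9 CPM in vehicle larvae. The groups did not overlap at either age. They were also apart at 4 dpf, at 52.8 to 61.5 CPM in calcitriol larvae and 62.0 to 76.5 CPM in vehicle larvae. There the log2 fold change of igfbp2a was -0.28 ± 0.08 and did not pass (edgeR, adjusted p = 0.412). How many of all genes lay wholly lower in calcitriol larvae is not given here. The log2 fold changes at 6 and 7 dpf were -1.12 and -1.42 for igfbp2a, -0.95 and -1.20 for igfbp2b, -0.39 and -0.66 for igfbp5a, and -0.72 and -0.86 for igfbp6b (edgeR, adjusted p of 0.0140 or less). The igfbp5a call at 6 dpf was lost without scaling factors and in sums of the exon table, at an adjusted p of up to 0.109. The gene stc2, which encodes a stanniocalcin that inhibits the protease freeing IGFs from their binding proteins in mammals, had a median of 5.70 CPM in calcitriol larvae and 15.2 CPM in vehicle larvae at 6 dpf. Its log2 fold change was -1.41 ± 0.09 at 6 dpf (adjusted p = 1.55e-05) and -1.41 ± 0.15 at 7 dpf (adjusted p = 4.99e-05). The igfbp1 pair thus lay on the opposite side of 0 from these 4 binding protein genes.

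**Figure D4:**
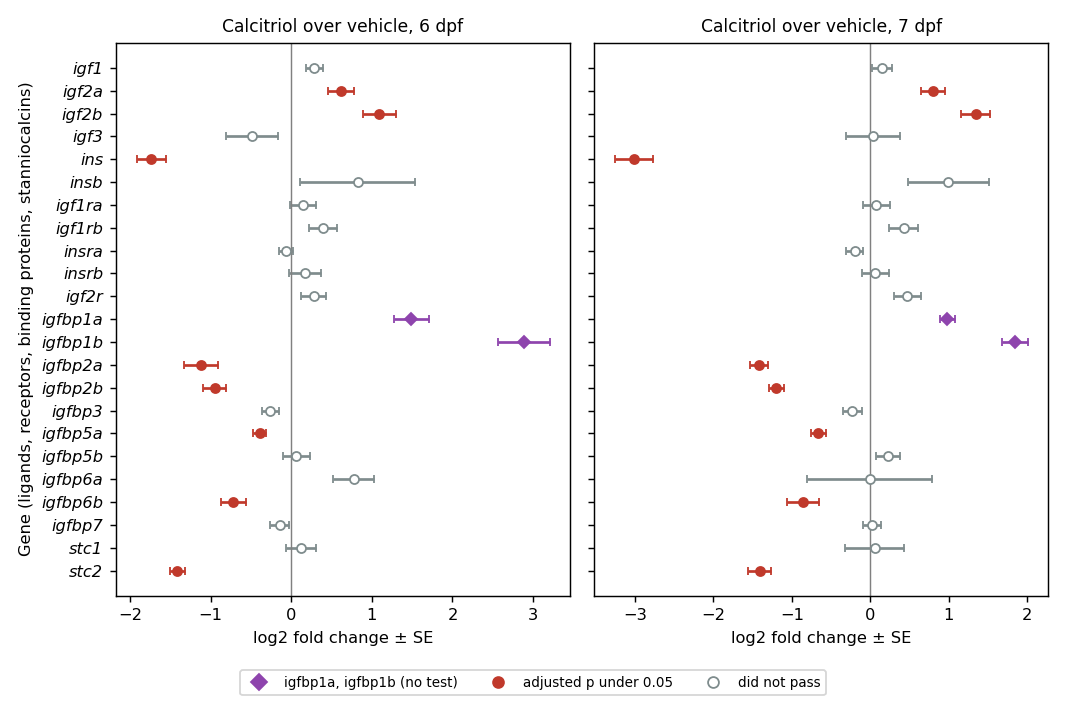
Log2 fold change with its SE, calcitriol over vehicle, for each measured gene of the IGF axis at 6 dpf (left) and 7 dpf (right), with 5 libraries per group. Filled red circles passed an edgeR adjusted p of 0.05, open circles did not, and the purple diamonds of igfbp1a and igfbp1b, shown without a test, lie to the right of every red circle except at 7 dpf, where igf2b (1.34) lies beyond igfbp1a (0.98).

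Pathways known to raise IGFBP1 in mammals were followed with lists of their members, and the counts in this paragraph take those lists together with the IGF axis, each gene once. At 2 dpf 0 of 110 list genes were called in edgeR, with 1 at an unadjusted p under 0.05 and 0 by DESeq2 and by limma voom. At 4 dpf 0 of 111 were called in edgeR, with 19 at an unadjusted p under 0.05, 6 by DESeq2 and 3 by limma voom. Of all 13410 genes DESeq2 called 103 at 4 dpf and limma voom 30. With the exon table's numbers as a replicate block 23 list genes were called at 4 dpf, 10 higher and 13 lower, where 1255 of all 13410 genes were called. At 6 dpf 16 of 112 list genes were called higher and 15 lower, or 32 and 26 with that block. Of all 13505 genes that block called 1747 higher and 1710 lower at 6 dpf. The total of 31 list genes called at 6 dpf became 48 without calcitriol replicate 5, the shallow library, and 60 without both shallow libraries of that age. All genes called rose from 1444 of 13505 to 2310 of 13534 and 3532 of 13515 in these fits. At 7 dpf 29 list genes were higher and 23 lower. Without scaling factors these splits were 30 higher and 11 lower at 6 dpf, and 39 higher and 20 lower at 7 dpf. Of all genes 1735 of 13505 were then higher and 609 lower at 6 dpf, and 4130 of 13434 higher and 1150 lower at 7 dpf. That setting moved the median of all genes to 0.14 at 6 dpf and 0.18 at 7 dpf on the log2 scale, and fold changes here are relative to the TMM scaling. The counts by list that follow stand beside 4.37% of all genes called higher and 6.32% lower at 6 dpf, and 14.6% higher and 14.2% lower at 7 dpf. These shares belong to the edgeR fit of 5 against 5 libraries, and counts from other fits stand beside other totals. With 1 library left out 849 to 2310 of all genes were called at 6 dpf, and 2773 to 5678 at 7 dpf.

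Among FOXO factors and fasting-type targets lower calls outnumbered higher ones, with 2 of 14 called higher and 5 lower at 6 dpf, and 2 higher and 9 lower at 7 dpf. Without the shallow libraries 5 were called higher and 8 lower at 6 dpf, as many as with the exon-table replicate block. Of all genes 1638 of 13515 were called higher and 1894 lower without the shallow libraries, and 1747 of 13505 higher and 1710 lower with the block. Their median log2 fold change was -0.26 at 6 dpf and -0.51 at 7 dpf. The gene foxo3a, which encodes a FOXO factor, had a median of 133 CPM in calcitriol larvae and 250.2 CPM in vehicle larvae at 6 dpf, with log2 fold changes of -0.92 ± 0.08 at 6 dpf (edgeR, adjusted p = 8.47e-05) and -1.31 ± 0.12 at 7 dpf (adjusted p = 1.98e-05). The gluconeogenic genes pck2 (-1.05 at 6 dpf and -1.16 at 7 dpf) and fbp1a (-1.18 at 7 dpf) also fell. In the other direction tat rose, with a log2 fold change of 1.69 ± 0.24 at 6 dpf (adjusted p = 0.00107), and so did another FOXO factor gene, foxo1b, at 1.02 ± 0.23 at 6 dpf (adjusted p = 0.0162) and 0.90 ± 0.20 at 7 dpf (adjusted p = 0.00719). The gene foxo1b was named after its values were seen.

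Among genes of the amino acid response governed by ATF4 higher calls outnumbered lower ones, with 6 of 24 called higher and 1 lower at 6 dpf, and 15 higher and 1 lower at 7 dpf. Their median was 0.33 at 6 dpf and 0.70 at 7 dpf. The 7 calls at 6 dpf became 4 without vehicle replicate 4 or calcitriol replicate 1, and 14 without calcitriol replicate 5. Those fits called 874 of 13517, 894 of 13520 and 2310 of 13534 of all genes, against 1444 of 13505 with every library kept. The gene slc1a4, which encodes a transporter of neutral amino acids, had a median of 88.4 CPM in calcitriol larvae and 9.68 CPM in vehicle larvae at 7 dpf. Its log2 fold change was 1.43 ± 0.22 at 6 dpf (edgeR, adjusted p = 0.00172) and 3.25 ± 0.35 at 7 dpf (adjusted p = 6.17e-05). The serine synthesis gene psat1 rose by 0.72 at 6 dpf and 1.96 at 7 dpf, and the mitochondrial folate enzyme gene mthfd2 by 1.92 at 7 dpf. The gene cbsb, for an enzyme that makes cystathionine from homocysteine, fell by 0.52 at 6 dpf.

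Of the hypoxia-inducible factors and their targets 4 of 29 were called higher and 1 lower at 6 dpf, and 8 higher and 2 lower at 7 dpf, with medians of 0.07 and 0.27. The 5 calls at 6 dpf became 8 without calcitriol replicate 5, and 3 without any 1 of vehicle replicates 3 to 5 or of calcitriol replicates 1, 3 and 4. The 10 calls at 7 dpf became 16 without calcitriol replicate 5. Without that replicate all genes called rose from 1444 of 13505 to 2310 of 13534 at 6 dpf. At 7 dpf they rose from 3866 of 13434 to 5678 of 13460. The 6 dpf fits with 3 list calls had 849 to 1005 of all genes called. At 6 dpf adm2, a peptide hormone gene, rose by 1.76 ± 0.18 (edgeR, adjusted p = 0.000178), pfkfb3, a regulator of glycolysis, by 1.24, and ndrg1l by 1.18. At 7 dpf the angiogenic factor gene vegfaa rose by 1.098 ± 0.129 (adjusted p = 0.000114) and the collagen hydroxylase gene p4ha1 by 0.90, and the mitophagy gene bnip3 fell by 0.74. In the glucocorticoid list 2 of 25 were called higher and 2 lower at 6 dpf, and 2 higher and 5 lower at 7 dpf, shares near those over all genes. The 4 calls at 6 dpf became 7 without vehicle replicate 1, and 4 higher and 5 lower without both shallow libraries. Those fits called 2128 of 13540 and 3532 of 13515 of all genes. The cytokine inhibitor gene socs1 fell by 0.85 at 6 dpf and 1.13 at 7 dpf. The steroidogenic gene cyp17a1 fell by 0.62 and 0.85 at these ages, and the kinase genes sgk2b and sgk2a had log2 fold changes of 0.43 at 6 dpf for sgk2b and -0.63 at 7 dpf for sgk2a.

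Hepatocytes are the textbook source of IGFBP1, and their markers ran against the paralogs in calcitriol larvae. Of 23 hepatocyte markers 20 were in the table and none was at 0. In sum they had medians of 1370.2, 2735, 2499 and 1910.2 CPM in calcitriol animals and 1253, 3259.7, 3944 and 3287 CPM in vehicle animals at 2, 4, 6 and 7 dpf. At 6 dpf the sum ranged over 2139 to 3214 CPM in calcitriol larvae and 3814 to 4322 CPM in vehicle larvae, and at 7 dpf over 1852 to 2619.9 CPM in calcitriol larvae and 3196 to 3905 CPM in vehicle larvae. Single markers called were 1 higher and 12 lower of 20 at 6 dpf, and 0 higher and 16 lower at 7 dpf, with fabp10a, the liver fatty acid binding protein gene, at a log2 fold change of -2.63 ± 0.31 at 7 dpf (edgeR, adjusted p = 0.000104). Over all genes 6.32% were called lower at 6 dpf and 14.2% at 7 dpf. Markers of other digestive cells were lower as well, with 8 of 8 for enterocytes at both ages and, for exocrine pancreas, 7 of 13 at 6 dpf (with 1 higher) and 11 of 13 at 7 dpf. Of 5 measured genes of the yolk syncytial layer and lipoprotein secretion 3 were lower at 6 dpf and 4 at 7 dpf. Of 14 skeletal muscle markers 5 were lower at 6 dpf and 6 at 7 dpf. The part of these shifts in the igfbp1a and igfbp1b values was not tested.

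**Figure D5:**
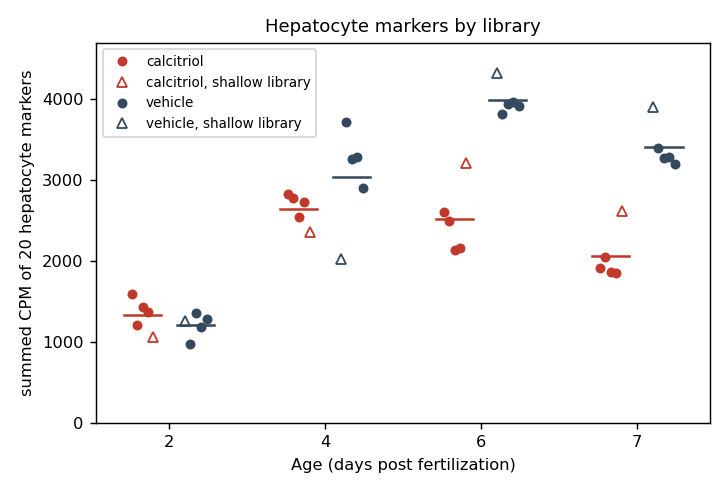
Summed CPM of the 20 measured hepatocyte markers against age in dpf, with 1 point per library, calcitriol left of vehicle, bars at the means and open triangles for the shallow libraries. Calcitriol larvae lie below all vehicle larvae at 6 dpf (2139 to 3214 against 3814 to 4322) and at 7 dpf (1852 to 2619.9 against 3196 to 3905).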

How the data were processed

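The authors deposited raw counts per gene and raw counts per exon for 40 libraries of paired 51-base reads. The submitters' processing notes name CASAVA 1.4 and HTSeq 0.5.3p3 without a role or order, the row names place the genes on Zv9, and the aligner is not given in the sources used here. The labels do not describe strand-specific counting, so reads of overlapping genes cannot be told apart, and sharing of reads between the paralogs was not tested.

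Genes were tested with edgeR 4.0.16 in R 4.3.3 (filterByExpr, TMM factors, robust quasi-likelihood fit) on the 10 libraries of each comparison, with a threshold of 0.05 after Benjamini-Hochberg adjustment over all genes tested. Levels of genes are CPM with TMM factors over all 40 libraries, and exon values took no TMM factors. The paralog balance used a pseudocount of 0.5 count and an exact permutation test (scipy 1.17.1). Alternatives were DESeq2 1.42.0, limma 3.58.1 voom, other scaling and filters, 1 library left out at a time, the shallow libraries left out, sums of the exon table, and replicate blocks. Libraries of a group differed by more than sampling noise in all 80 pairs, with a chi-square over its degrees of freedom of at least 21.8, so the spread between libraries, not counting error, limits precision.

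Columns of the exon table were matched to gene-table libraries by genes of equal total (at least 50 counts): 53 to 78 genes for the match, at most 7 for the next. In the exon table the shallow library is number 1 in every group. Replicate numbers of the labels did not pair calcitriol with vehicle libraries (lowest correlation of deviations -0.46, -0.59, -0.54 and -0.60 at 2, 4, 6 and 7 dpf), whereas they paired neighbouring vehicle ages (0.37, 0.18 and 0.44). Numbers of the exon table paired calcitriol with vehicle at 2, 4 and 6 dpf (0.43, 0.69 and 0.24), with 0.0954 at 7 dpf, just under the limit of 0.1 used.

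Members and lists were chosen with earlier results of these data known. Of 176 list entries, 5 pathway lists, 113 matched the table (112 genes). Named were the pair, up to 3 members per list and age with the smallest p past the threshold, and for each paralog the 5 genes with the highest correlation over group means and over library deviations, among genes with mean log2 CPM of at least 2.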

Additional observations from a re-analysis of the deposited data

Results flagged for a closer look

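The CPM of igfbp1a, that of igfbp1b and their balance were each checked in the 8 groups for a library far from the others, and of these 24 related checks 2 stood out, both in the balance of the paralogs at 7 dpf and both in the shallow library; chance gives about 1 in 20 checks. In calcitriol larvae at 7 dpf the highest log2(igfbp1b/igfbp1a) was 1.71, in replicate 5, and the next was 1.30. In vehicle larvae at 7 dpf the lowest was -0.24, in replicate 1, and the next was 0.62.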

How the results depend on the processing

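Directions of the calcitriol effect at 4, 6 and 7 dpf held in all alternatives run. Leaving out 1 library gave 0.72 to 1.15, 1.30 to 1.63 and 0.92 to 1.03 for igfbp1a, and 1.60 to 2.29, 2.65 to 3.06 and 1.73 to 1.91 for igfbp1b. Without scaling factors igfbp1a at 7 dpf was 1.15. At 2 dpf the sign was not stable: leaving out 1 library gave -0.12 to 0.19 for igfbp1a and -0.068 to 0.22 for igfbp1b, and without the shallow libraries igfbp1b was -0.0084. For igfbp1a in 4 over 2 dpf vehicle larvae, leaving out 1 library gave 0.45 to 0.82, and the change passed without scaling factors (0.83), with limma voom (0.56), without the shallow libraries (0.66) and with the replicate block (0.59). In 7 over 6 dpf vehicle larvae the fit of all 40 libraries gave 0.77 for igfbp1a and 1.13 for igfbp1b, neither passing. For the balance of the paralogs, leaving out 1 library gave 2.29 to 2.59, 0.46 to 0.71 and 0.20 to 0.54 in the 3 steps. The 6 over 4 dpf step then passed without vehicle 4 dpf replicate 4 or 5 or vehicle 6 dpf replicate 1, and the 7 over 6 dpf step without vehicle 7 dpf replicate 1. Without the shallow libraries the later steps were 0.67 and 0.38, both passing at the smallest exact p that 4 against 4 libraries allow. By replicate block the first step, 2.45, had an exact p of 0.0625, the smallest 5 pairs allow, and the later steps also rose in every pair. The cause was not tested. List genes called at 4 dpf numbered 0, against 6 with DESeq2, 3 with limma voom, 1 without the shallow libraries, 23 with the exon-table replicate block, 3 in the fit of all 40 libraries, and 0 to 1 with 1 library left out. At 6 dpf they numbered 31, against 61 with limma voom, 60 without the shallow libraries, 58 with the exon-table replicate block, and 22 to 48 with 1 library left out, the highest without calcitriol replicate 5. All genes called at 4 dpf numbered 0, against 1255 with the exon-table replicate block, 103 with DESeq2, 30 with limma voom, 27 in the fit of all 40 libraries, 18 without the shallow libraries and 0 to 9 with 1 library left out. At 6 dpf they numbered 1444, against 4297 with limma voom, 2202 with DESeq2, 3532 without the shallow libraries, 3457 with that block, 921 with the replicate block by the labels, 541 in sums of the exon table and 849 to 2310 with 1 library left out. At 7 dpf they numbered 3866, against 8283 with limma voom, 7626 without the shallow libraries, 2517 with the replicate block by the labels and 1591 in sums of the exon table, and in 7 over 6 dpf vehicle larvae 1618, against 4671 with limma voom, 3626 without the shallow libraries, 4404 with the replicate block by the labels and 928 to 2683 with 1 library left out. Without scaling factors higher and lower calls were 1735 and 609 at 6 dpf (590 and 854 with TMM) and 4130 and 1150 at 7 dpf (1962 and 1904 with TMM). For the vehicle steps they were 5409 and 2587, 1304 and 5432, and 572 and 1342, against 4288 and 4037, 2438 and 2400, and 956 and 662 with TMM. The replicate block by the labels changed no direction of the calcitriol effect at 4, 6 and 7 dpf.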

Other observations

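The shallow libraries also spread their igfbp1a reads differently along the gene. The row chr20:7029614-7030064 (Zv9) held 48.9% to 60.8% of the gene's named-exon counts in the shallow library of the 8 groups, and 74.4% to 83.9% in the other libraries. For igfbp1b the row chr2:167670-167884 held 64.0% to 75.0% in the shallow libraries and 54.3% to 73.2% in the others.

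In vehicle larvae other genes of the IGF axis were also called by age. In 4 over 2 dpf larvae 11 of 20 were called higher and 2 lower, where 32.1% of all genes were higher and 30.2% lower. In 6 over 4 dpf larvae 7 of 21 were higher and 2 lower, where the shares were 18.1% and 17.8%. In 7 over 6 dpf larvae 0 were higher and 3 lower, namely igfbp2b, igfbp3 and igfbp7, where the shares were 7.1% and 4.92%.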
